A study of Mus musculus with 4 samples.

Results

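The comparison of the IBU+ACE library with the ASP+ACE library sets ibuprofen against aspirin, each given with acetaminophen, in the fetal mouse testis. Its members were all 174 transcripts that the authors' deposited table for this pair lists, of 382 distinct transcripts in the 6 pairwise tables of the series. The authors' deposited table holds only transcripts marked significant, so membership itself rests on the authors' call. The series asked how NSAIDs and acetaminophen given in the womb act on the forming testis. Gonads were taken from wild-type CD1 embryos at E13.5, cut free of the mesonephros and frozen. The treatment was labelled aspirin+acetaminophen for ASP+ACE, ibuprofen+acetaminophen for IBU+ACE, acetaminophen for ACE+ACE and none for Control (named EtOH inside the tables). Each group was 1 library, so no difference below has a replicate check and each is a difference between 2 libraries. Neither doses, nor days of exposure, nor whether embryos were pooled could be read from the labels.

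Levels are FPKM, fragments scaled to transcript length and to all mapped fragments, and the reads behind each value are unknown. Fold changes are IBU+ACE over ASP+ACE, recomputed from both FPKM values, and are called higher or lower only where the authors' deposited table lists the transcript, always at p = 5e-05 and q = 0.0310, so that neither p nor q ranks them. For a gene outside the table, a missing call and a missing test look the same. Aspirin and ibuprofen both block the cyclooxygenases that make prostaglandins; aspirin acetylates the enzymes, whereas ibuprofen binds them reversibly. In the fetal testis prostaglandin D2 is known to add to Sertoli cell differentiation, and around this stage male germ cells shut down pluripotency genes and enter mitotic arrest.

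Most listed transcripts were higher in IBU+ACE, 160 of 174 (92.0%), and 14 (8.05%) were lower. Of the 156 transcripts above 0 in both libraries, 125 (80.1%) were at least 2-fold higher and 5 (3.21%) at least 2-fold lower, with a median log2 fold change of 1.75. The largest named differences were in genes on the posterior Hox, limb, cartilage and epidermal lists, led by Hoxd13 at 0.0821 FPKM in ASP+ACE and 10.95 FPKM in IBU+ACE. Germ cell genes were among the few that were lower, such as Lefty1, at 8.41 and 4.53 FPKM. Most of the higher transcripts started low: 104 of the 160 had under 1 FPKM in ASP+ACE, and 59 of these reached 1 FPKM or more in IBU+ACE. Only 10 of the 160 had 10 FPKM or more in ASP+ACE. A fold of 10 or more was reached by 19 transcripts, 15 of them named, all higher in IBU+ACE. In whole-tissue RNA a difference in the number of cells of a type cannot be told apart from a difference in RNA per cell.

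**Figure D1:**
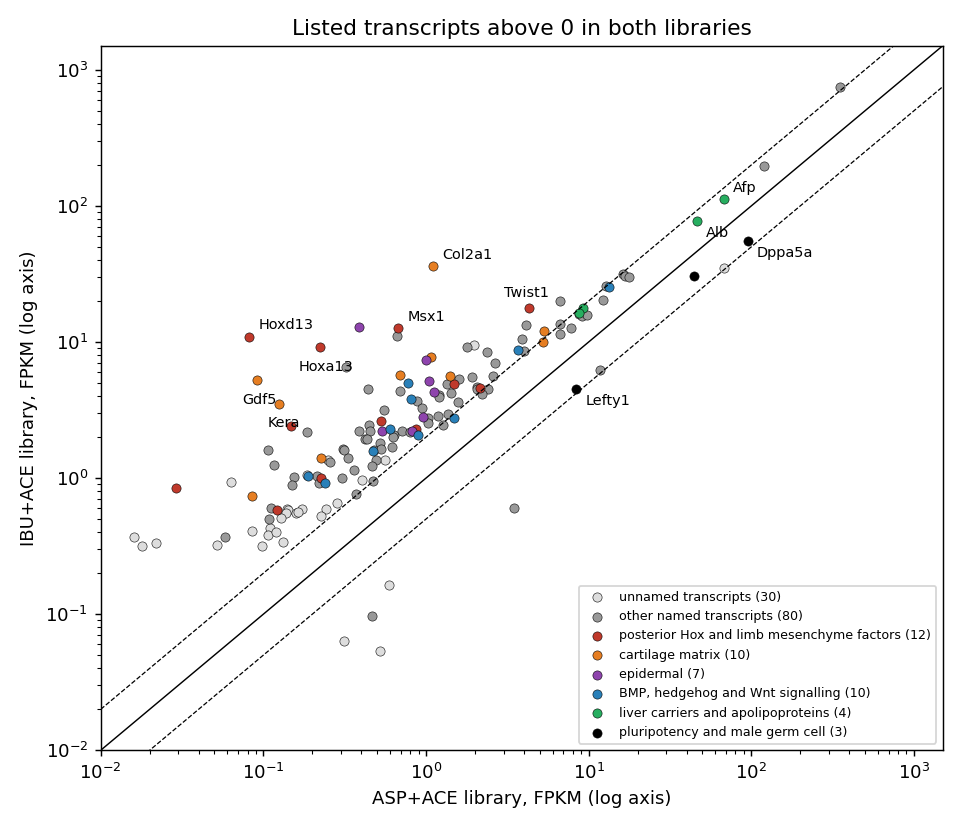
FPKM in ASP+ACE (x, log axis) against FPKM in IBU+ACE (y, log axis) for the 156 listed transcripts above 0 in both libraries, 1 point per transcript, coloured by gene list; the solid line marks equal levels and the dashed lines 2-fold differences. Col2a1 and Hoxd13 lie far above the lines at 36.3 and 10.95 FPKM in IBU+ACE, liver genes lie between the solid and the upper dashed line, and the 3 germ cell genes lie below the solid line.

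Posterior Hox genes, which pattern the hind end of the body axis, the distal limb and the external genitalia, had 3 of 23 list members in the table, all higher. For scale, 0.465% of 21924 annotated protein-coding genes were listed as higher and 0.0182% as lower. Hoxd13 (chromosome 2, 74668310 to 74671599, GRCm38) had 0.0680 FPKM in Control, 0.0821 FPKM in ASP+ACE and 10.95 FPKM in IBU+ACE, a 133-fold difference between the last pair. Hoxa13 (chromosome 6, 52257694 to 52260880), its counterpart in the HoxA cluster, had 0.224 FPKM in ASP+ACE and 9.13 in IBU+ACE, beside 0.0961 in Control and 0.323 in ACE+ACE, a 40.8-fold difference. Evx2, the homeobox gene next to Hoxd13, was listed at 0 in ASP+ACE and at 1.82 FPKM in IBU+ACE. For Hoxa13 all 4 libraries have a value and IBU+ACE was the high one, whereas Evx2 has values for this pair alone. Beside them on chromosome 2, the transcript named Gm28309 went from 0.385 to 2.22 FPKM; its locus spans Hoxd10, Hoxd11 and Hoxd12, so its value may include them. Together the 3 neighbouring transcripts cover 44596 nt (74652991 to 74697586).

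The promoters of several genes on the Hox, limb and cartilage lists carry CCAAT boxes, the pentamer bound by NF-Y. The 4 shown were picked because their genes were among the most different between the libraries and their windows hold a match. Each stretch is the 150 bases upstream of a RefSeq start site (GRCm38.p6), 5′ to 3′ on the gene's strand, with CCAAT or its reverse complement ATTGG in capitals. They lie at chr6:52260881-52261030 on the minus strand (Hoxa13), chr5:37824586-37824735 on the minus strand (Msx1), chr10:97607055-97607204 on the plus strand (Kera) and chr2:33641099-33641248 on the minus strand (Lmx1b).
Hoxa13: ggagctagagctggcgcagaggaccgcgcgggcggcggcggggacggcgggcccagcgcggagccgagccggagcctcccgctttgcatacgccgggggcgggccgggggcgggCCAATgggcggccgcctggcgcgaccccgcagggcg
Msx1: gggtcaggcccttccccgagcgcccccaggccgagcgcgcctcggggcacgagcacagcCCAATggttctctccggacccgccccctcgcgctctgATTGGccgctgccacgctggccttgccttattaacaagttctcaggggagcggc
Kera: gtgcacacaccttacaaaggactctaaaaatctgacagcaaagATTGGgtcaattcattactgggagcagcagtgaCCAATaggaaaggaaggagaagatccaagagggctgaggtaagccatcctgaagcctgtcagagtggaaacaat
Lmx1b: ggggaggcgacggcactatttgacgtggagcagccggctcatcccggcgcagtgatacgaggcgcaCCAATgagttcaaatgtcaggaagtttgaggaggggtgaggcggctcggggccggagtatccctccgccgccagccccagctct
Hoxa13 and Lmx1b hold 1 match each in this window, and Msx1 and Kera hold 2. Promoters of 300 bases (250 before to 50 after a start) were found for 71 of the 119 gene names higher in IBU+ACE. CCAAT occurred on either strand in 46.5% of these against 41.1% of 27025 genes with a promoter. A gene counted if at least 1 of its promoters matched. Of the listed limb and Hox genes with a promoter 8 of 9 counted, and of the cartilage genes 5 of 6. These lists were chosen with earlier results of these data known. TATAAA occurred in 18.3% of the higher genes against 15.7% of all, and AGATAA in 7.04% against 12.7%. Of the limb and Hox genes 3 of 9 counted for TATAAA and 1 of 9 for AGATAA. Of the cartilage list 1 of 6 counted for TATAAA and 2 of 6 for AGATAA. With so few genes in each list, no share was tested against that of all promoters. TGNACTTTG, a site of the hepatocyte factor HNF4A, occurred in 0 of the 71 and in 1.64% of all. A match describes letters only.

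Transcription factors of limb and body wall mesenchyme had 9 of 55 list members in the table, all higher in IBU+ACE, with a median log2 fold change of 2.2 over 10 transcripts against 1.75 over all listed transcripts. Msx1, a homeobox factor of BMP-responsive mesenchyme, had 0.676 FPKM in ASP+ACE and 12.7 in IBU+ACE, beside 0.788 in Control and 0.659 in ACE+ACE, an 18.8-fold difference from ASP+ACE. Msx2, its paralog, had 0.603 FPKM in Control, 0.868 in ASP+ACE and 2.31 in IBU+ACE. Irx5, of the Iroquois homeobox family, had 0.147 FPKM in ASP+ACE and 2.41 in IBU+ACE, beside 0.20 in Control and 0.209 in ACE+ACE. For all 3 every value found outside IBU+ACE was under 1 FPKM. Lmx1b, which sets dorsal fate in the limb, was low in every library, at 0.0290 FPKM in ASP+ACE, 0.852 in IBU+ACE, 0.0611 in Control and 0.0339 in ACE+ACE; its locus also spans Gm38011. Twist1, a bHLH factor of mesenchyme, was the most abundant of the 9 listed members, at 4.30 FPKM in ASP+ACE and 17.9 in IBU+ACE, beside 5.20 in Control and 3.74 in ACE+ACE. The Twist1 locus is on chromosome 12 (33957671 to 33963506), and the highest library was again IBU+ACE.

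Osr1, an early marker of intermediate and lateral mesoderm, had 1.49 FPKM in ASP+ACE and 4.89 in IBU+ACE, beside 1.45 in Control and 1.32 in ACE+ACE. Foxc1, a forkhead factor of mesenchyme, had 2.14 FPKM in ASP+ACE and 4.60 in IBU+ACE, and Barx2 0.227 and 1.0 FPKM. Tbx18, a T-box factor, had 2 listed transcripts, at 0.529 and 2.64 FPKM and at 0.121 and 0.578 FPKM, and D030062O11Rik at the same locus went from 0.111 to 0.607 FPKM; reads of these overlapping genes may be shared. Outside the lists, Miat, a long noncoding RNA, went from 0.186 to 2.2 FPKM, Susd5 from 0.117 to 1.24 FPKM, the predicted gene Gm13111 from 0.106 to 1.61 FPKM and Fibin, a secreted protein first described in fin bud, from 0.691 to 4.40 FPKM. Meox2, a homeobox gene of somite and limb muscle precursors, had 0.437 FPKM in ASP+ACE and 4.49 in IBU+ACE, a 10.3-fold difference, beside 0.50 in Control and 0.353 in ACE+ACE. Named after their values were seen, Ebf1 and Ebf3, a pair of related factors, went from 1.35 to 4.92 and from 0.215 to 1.03 FPKM between ASP+ACE and IBU+ACE. Sox11, a factor of neural and mesenchymal progenitors named for the same reason, went from 16.8 to 30.5 FPKM.

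The cartilage list, as drawn up here, had 9 of 39 members in the table, all higher, with a median log2 fold change of 2.96 over 10 transcripts. Col2a1 (chromosome 15, 97975602 to 98004703), the main collagen of cartilage, had 1.10 FPKM in ASP+ACE and 36.3 in IBU+ACE, beside 2.92 in Control and 2.25 in ACE+ACE, a 33.0-fold difference. ASP+ACE was the lowest library for this gene and IBU+ACE the highest. The minor fibrillar collagens that assemble with it differed less: Col11a1 went from 5.31 to 12.1 FPKM and Col11a2 from 0.226 to 1.40 FPKM. Col9a1, which coats the fibrils, was listed as 2 transcripts, from 1.07 to 7.83 and from 0.691 to 5.73 FPKM. Gdf5, a growth factor of forming joints, had 0.0916 FPKM in ASP+ACE and 5.25 in IBU+ACE, a 57.3-fold difference, beside 0.159 in Control and 0.174 in ACE+ACE; its locus (chromosome 2, 155940728 to 155945423) also covers Gm15557. Kera, a small leucine-rich proteoglycan (keratocan), had 0.125 FPKM in ASP+ACE and 3.53 in IBU+ACE, beside 0.203 in Control and 0.0734 in ACE+ACE. Its place among cartilage genes rests on the list alone. Matn3, a matrilin of cartilage, went from 0.0850 to 0.743 FPKM, and Papss2, which makes the sulfate donor for proteoglycans, from 1.40 to 5.67 FPKM.

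Sox9 is on both the cartilage and the Sertoli list, since it drives chondrocyte as well as Sertoli cell fate. Sox9 (chromosome 11, 112782224 to 112787760) had 5.22 FPKM in ASP+ACE and 10.04 in IBU+ACE, beside 5.98 in Control and 5.97 in ACE+ACE, a 1.92-fold difference. It was the 1 listed gene of 36 on the Sertoli list, and its log2 fold change of 0.94 was below the listed median. Its share in either cell type was not tested.

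Epidermal genes had 7 of 41 list members in the table, all higher, with a median log2 fold change of 2.05. The basal keratins were listed together: Krt5 had 1.0 FPKM in ASP+ACE and 7.35 in IBU+ACE, beside 1.27 in Control and 0.818 in ACE+ACE. Its partner Krt14 went from 1.11 to 4.29 FPKM, beside 1.62 in Control and 1.35 in ACE+ACE. Krt15 went from 0.535 to 2.21 FPKM, beside 0.658 in Control and 0.507 in ACE+ACE. All 3 keratin genes were highest in IBU+ACE, and the remaining libraries differed by less than 1 FPKM. Perp, a desmosomal membrane protein, went from 1.04 to 5.16 FPKM between ASP+ACE and IBU+ACE, Sfn (14-3-3 sigma) from 0.954 to 2.81 FPKM and Cldn4, a tight junction claudin, from 0.825 to 2.21 FPKM. Cxcl14, a chemokine of epithelia and mesenchyme, had 0.386 FPKM in ASP+ACE and 12.9 in IBU+ACE, beside 0.855 in Control and 0.447 in ACE+ACE, a 33.3-fold difference.

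Other epithelial genes were listed outside that list. Upk1a, a uroplakin of bladder epithelium, went from 0.154 to 1.02 FPKM, and Gabrp, a GABA-A receptor subunit found in epithelia, from 0.324 to 6.58 FPKM, a 20.3-fold difference. Named after their values were seen, Trim29 went from 0.220 to 0.917 FPKM and Ppl (periplakin) from 0.306 to 1.0 FPKM. Psca, named likewise, was listed at 0 in ASP+ACE and at 0.308 FPKM in IBU+ACE. All were low in both libraries compared with Gabrp in IBU+ACE.

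**Figure D2:**
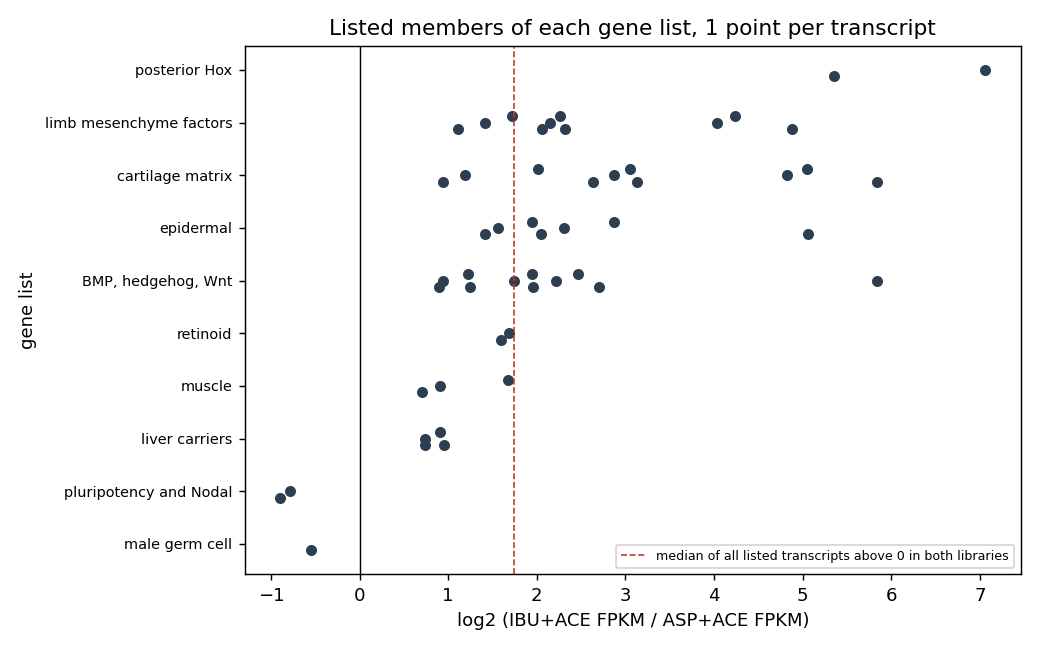
log2 fold change of IBU+ACE over ASP+ACE (x) for the listed members of 10 gene lists (y), 1 point per transcript above 0 in both libraries; the solid line marks 0 and the dashed line the median of 1.75 over all listed transcripts. Limb, cartilage, epidermal and signalling lists reach far past the dashed line, liver and muscle members lie between the 2 lines, and the 3 germ cell members lie below 0.

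Genes of the BMP, hedgehog and Wnt pathways, which pattern limb and skin and, in the testis, include the Sertoli signal of the hedgehog family, had 10 of 56 list members in the table, all higher, with a median log2 fold change of 1.94 over 11 transcripts. Among ligands, the joint factor Gdf5, also on the cartilage list, differed most, with a log2 fold change of 5.84. Bmp2 went from 0.897 FPKM in ASP+ACE to 2.09 in IBU+ACE, Wnt7b from 0.187 to 1.03 FPKM, and Ihh, the hedgehog of cartilage, from 0.238 to 0.924 FPKM. The testis ligand Dhh was not in the table. Among receptors and transducers, Bmpr1b, a BMP type I receptor, went from 0.470 to 1.58 FPKM, and Gli3, a transcription factor of hedgehog signalling, was listed as 2 transcripts, from 3.66 to 8.69 and from 1.49 to 2.76 FPKM. The Gli3 locus spans 3 further annotated genes. The target genes Ptch1, Gli1 and Hhip were not in the table.

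The remaining 4 listed members were secreted antagonists. Nog (noggin), which binds BMPs, had 0.598 FPKM in ASP+ACE and 2.29 in IBU+ACE, beside 0.519 in Control and 0.619 in ACE+ACE. Of the Wnt antagonists, Dkk2 went from 0.775 to 5.02 FPKM, beside 1.05 in Control and 0.765 in ACE+ACE. Wif1 went from 0.812 to 3.79 FPKM, beside 1.02 in Control and 0.850 in ACE+ACE. Sfrp2 was more abundant and went from 13.3 to 25.5 FPKM, beside 12.7 in Control and 12.4 in ACE+ACE. In these 4 genes Control, ACE+ACE and ASP+ACE lay close together and IBU+ACE lay above them.

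Of 18 retinoid genes, 2 were in the table, both binding proteins for retinoic acid, the signal that drives germ cells towards meiosis. Crabp1 had 4.13 FPKM in ASP+ACE and 13.3 in IBU+ACE, beside 5.03 in Control and 3.75 in ACE+ACE, and Crabp2 went from 6.65 to 20.1 FPKM, beside 6.98 in Control and 5.69 in ACE+ACE. Their log2 fold changes, 1.69 and 1.59, were both below the median of all listed transcripts, so they would turn negative if values were centred on it. Called transcripts alone set that median, and most were higher, so a negative centred value does not mean a lower level. None of the enzymes or receptors of the pathway was listed.

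Liver products formed a different pattern. Of 26 genes for plasma carriers and apolipoproteins, 4 were in the table, all higher in IBU+ACE but each below the listed median. Centred on it they would turn negative, but called transcripts alone set that median, so this shows no lower level in IBU+ACE. Some transcripts of other lists lay below that median too: 3 of 10 limb, 2 of 10 cartilage, 2 of 7 epidermal and 5 of 11 signalling transcripts. Alb (albumin; chromosome 5, 90460897 to 90476602) had 46.4 FPKM in ASP+ACE and 77.3 in IBU+ACE, beside 52.6 in Control and 16.1 in ACE+ACE. Its neighbour Afp (alpha-fetoprotein) went from 67.8 to 113 FPKM, beside 130.2 in Control and 34.2 in ACE+ACE. Apoa1, of high-density lipoprotein, went from 9.20 to 17.8 FPKM, beside 18.3 in Control and 5.03 in ACE+ACE. Serpina6, the corticosteroid carrier, went from 8.69 to 16.3 FPKM, beside 12.3 in Control and 3.49 in ACE+ACE. For all 4 genes ACE+ACE was the lowest library and ASP+ACE stood between it and Control, while IBU+ACE was above Control for Alb and Serpina6 and below it for Afp and Apoa1. The folds between IBU+ACE and ASP+ACE were narrow, from 1.66 for Afp to 1.94 for Apoa1.

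Other liver genes have values for both libraries in the remaining tables without being listed for this pair. Ahsg (fetuin-A) had 6.10 FPKM in ASP+ACE and 10.3 in IBU+ACE, Ambp 4.06 and 6.70 FPKM, Vtn (vitronectin) 2.11 and 3.46 FPKM and Fgb (fibrinogen beta) 1.37 and 2.2 FPKM. None of the 50 clotting, complement and inhibitor genes and none of the 36 liver enzyme and transcription factor genes was listed for this pair. No gene of the red cell list was listed either. From other tables, Slc4a1, the red cell anion exchanger, had 8.15 FPKM in ASP+ACE and 14.3 in IBU+ACE, and the embryonic globin Hbb-y had 1809 and 1557 FPKM. The share of liver or blood cells in either library was not tested.

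Skeletal muscle genes had 3 of 25 list members in the table, all higher but below the listed median. Centring would turn them negative, which shows no lower level, since called transcripts alone set that median. Myod1, the master factor of muscle, went from 0.360 FPKM in ASP+ACE to 1.15 in IBU+ACE. Myh3, the embryonic myosin heavy chain, had 2.41 FPKM in ASP+ACE and 4.54 in IBU+ACE, beside 4.46 in Control and 1.85 in ACE+ACE. Actc1, the cardiac actin also used by embryonic muscle, went from 7.84 to 12.7 FPKM; its locus spans 3 further annotated genes. For Myh3, unlike the limb factors, IBU+ACE lay at the level of Control.

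**Figure D3:**
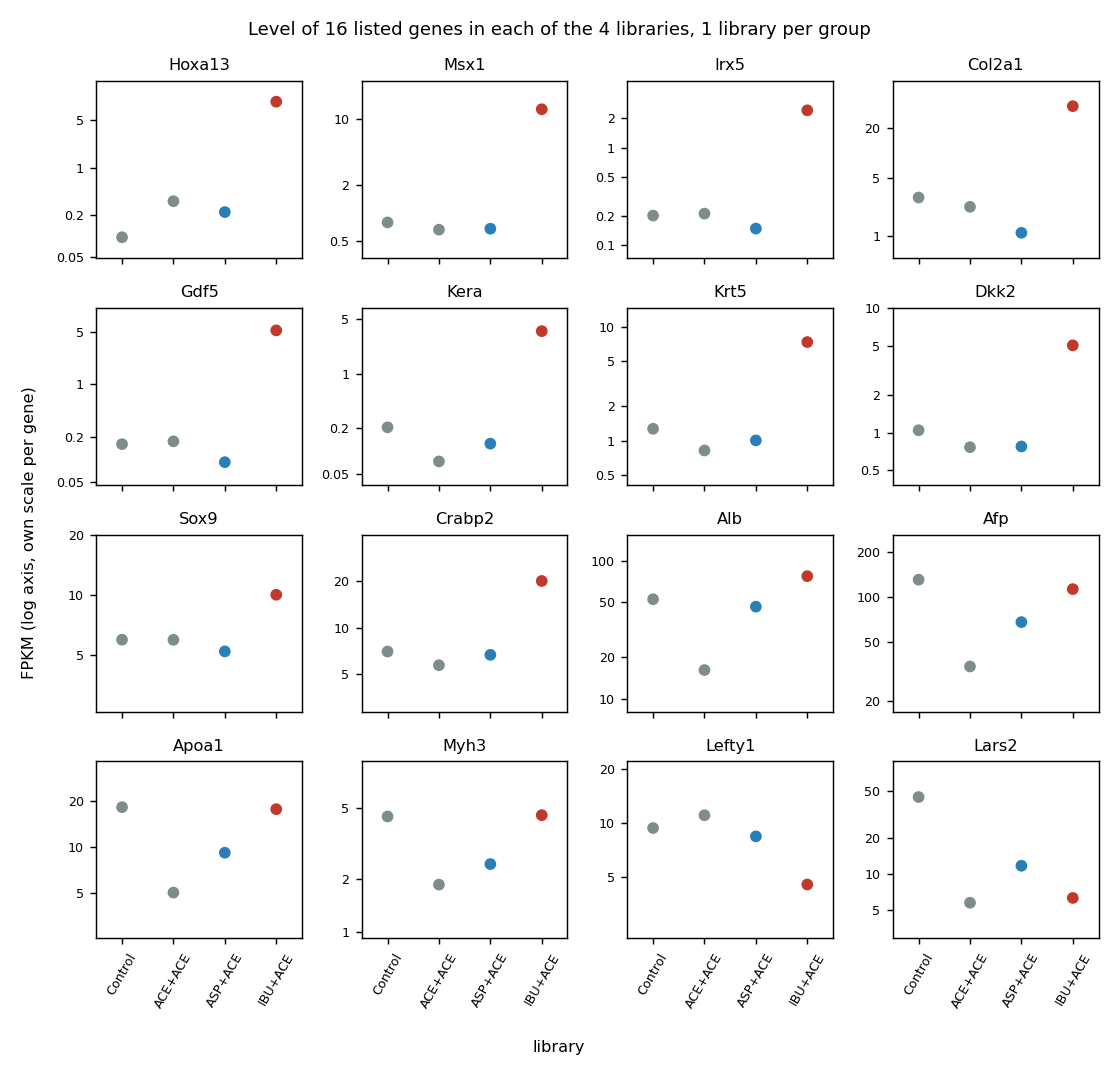
FPKM (y, log axis with its own scale for each gene) of 16 listed genes in the 4 libraries (x, left to right Control and ACE+ACE, then ASP+ACE and IBU+ACE), 1 point per library; the genes were picked to show the patterns described. Hoxa13, Msx1 and Krt5 are high in IBU+ACE alone, Alb and Afp are lowest in ACE+ACE, and Lefty1 is lowest in IBU+ACE, at 4.53 FPKM.

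Germ cell genes gave 3 of the 7 named transcripts that were lower in IBU+ACE. Of 33 pluripotency and Nodal genes, 2 were lower and 0 higher. Lefty1 (chromosome 1, 180935022 to 180938400), a secreted inhibitor of Nodal, had 8.41 FPKM in ASP+ACE and 4.53 in IBU+ACE, beside 9.37 in Control and 11 in ACE+ACE. IBU+ACE was the lowest of the 4 libraries and the other libraries lay between 8.41 and 11 FPKM. Dppa5a (chromosome 9, 78367052 to 78368177), an RNA-binding protein of pluripotent and early germ cells, had 95.5 FPKM in ASP+ACE and 55.4 in IBU+ACE. Of 38 male germ cell genes, only Tex19.1 (chromosome 11, 121146143 to 121148319), which restrains transposons in germ cells and placenta, was listed, at 44.6 and 30.4 FPKM. Its log2 fold change of -0.55 was the smallest in size of the 156. Dppa5a and Tex19.1 appear in no other table of the series, so they have no value for Control or ACE+ACE.

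Several germ cell genes listed for IBU+ACE against Control or ACE+ACE were not listed against ASP+ACE. Dnmt3l, the cofactor of DNA methylation in male germ cells, had 4.41 FPKM in IBU+ACE and Tdrd9, a piRNA helicase, 5.94 FPKM; neither has an ASP+ACE value in the tables. Sox2 and Lefty2 were likewise not listed for this pair. No gene of the meiosis list was in the table other than Msx1 and Msx2, which are limb factors too.

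Besides Sox9 on the Sertoli list, Vcam1, an adhesion molecule of interstitial cells, was the 1 listed gene of 36 in the Leydig and interstitial list and went from 3.98 to 8.64 FPKM; this log2 difference, 1.12, lay below the listed median of 1.75. Of 15 ovarian genes 3 were listed, all higher, namely Bmp2, Irx5 and Msx1, with a median log2 fold change of 4.04; all 3 are on the limb or signalling lists too. Of the 27 prostaglandin genes, which include the NSAID targets Ptgs1 and Ptgs2, none was listed, nor any of the 24 xenobiotic and stress genes, the 23 cell cycle genes or the 15 immediate early genes. Of 70 histone genes 1 was listed, Hist3h2ba, from 17.8 to 29.9 FPKM, below the listed median and so lower if centred on it.

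The long RNA Xist, which silences an X chromosome in female cells, had 0.668 FPKM in ASP+ACE and 11.1 in IBU+ACE, beside 0.954 in Control and 0.710 in ACE+ACE, a 16.6-fold difference. IBU+ACE was the high library by far. The deposited locus of Xist spans 7 annotated genes, among them its antisense partner Tsix and the coding gene Tsx, so its value may be mixed. None of 4 Y-linked markers (Ddx3y, Uty, Kdm5d and Eif2s3y) was in any of the 6 tables. The part of female cells or embryos in the other differences was not tested.

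Markers assigned to other tissues were set beside these results. All markers were chosen with earlier results of these data known, so they are no independent check. The 5 markers assigned to limb, cartilage and skin include genes with the largest folds here, so a large ratio of their sums was built into the choice. Hoxd13 and Hoxa13 among them also pattern the hind body axis and the external genitalia, so the set does not identify a tissue. The 5 markers were all listed and summed to 2.50 FPKM in ASP+ACE and 69.0 FPKM in IBU+ACE. The 3 muscle markers summed to 10.6 and 18.4 FPKM, and 3 of 4 liver markers to 123 and 208 FPKM. As a ratio of IBU+ACE to ASP+ACE, both sums differed less than that of limb, cartilage and skin. None of 3 red cell markers was listed for this pair. Of the markers assigned to the labelled tissue, Sox9 alone of 5 Sertoli markers was listed, and none of 5 germ cell, 5 fetal Leydig cell or 3 endothelial markers. Cst9, another Sertoli marker, was listed outside this pair, with 114 FPKM in IBU+ACE and no ASP+ACE value. None of these germ cell, Leydig cell and endothelial markers is in any of the 6 tables, so the label testis could not be checked against them. The part of other tissues in the germ cell and Sertoli results was not tested.

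Among the remaining transcripts lower in IBU+ACE was Lars2 (mitochondrial leucyl-tRNA synthetase; chromosome 9, 123366940 to 123462664), with 11.8 FPKM in ASP+ACE and 6.28 in IBU+ACE, beside 44.8 in Control and 5.72 in ACE+ACE. Here Control stood apart and the exposed libraries lay closer together. An unnamed transcript on chromosome 3 (5860338 to 5860774) had the same order of libraries, at 67.6 FPKM in ASP+ACE, 34.7 in IBU+ACE, 224 in Control and 33.2 in ACE+ACE. The pseudogene Gm5611 went from 3.46 to 0.602 FPKM, beside 2.64 in Control and 3.64 in ACE+ACE. Another, Gm14414, had 0.998 FPKM in ASP+ACE and 1.80 in ACE+ACE, with a listed 0 in the remaining libraries. Reads of either pseudogene may belong to near-identical copies.

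Unnamed transcripts made up 45 of the 174, of which 38 were higher and 7 lower in IBU+ACE, and 33 overlap no annotated gene. Runs of 2 or more listed transcripts within 100000 nt of each other numbered 17 and held 43 transcripts, 21 of them unnamed. In 5 of these runs, with 11 transcripts, the members share the coordinates of 1 locus, which leaves 12 runs over separate loci. The transcripts of each run differed in 1 direction, where 92.0% of all listed transcripts were higher. Inside the annotated Zfhx3 gene on chromosome 8, a run of 4 unnamed transcripts (108158873 to 108227133) had at most 0.0219 FPKM in ASP+ACE and between 0.331 and 0.515 FPKM in IBU+ACE. A further unnamed transcript inside Zfhx3, outside that run (108413050 to 108421038), went from 0.0180 to 0.315 FPKM. The transcript named Zfhx3, a homeobox and zinc finger factor, lies further along and went from 1.42 to 4.22 FPKM. On chromosome 1, 4 unnamed transcripts near Pi15 (17646456 to 17670795) went from between 0.107 and 0.164 FPKM to between 0.383 and 0.561 FPKM. An unnamed transcript on the X chromosome (24066498 to 24066675) was listed at 0 in ASP+ACE and at 4.16 FPKM in IBU+ACE, over only 178 nt. A transcript inside Fgf12 on chromosome 16 (28745769 to 28752576) went from 0.0159 to 0.367 FPKM. The other unnamed transcripts inside Fgf12 were listed at 0 in ASP+ACE and at 0.350 and 0.362 FPKM in IBU+ACE.

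A run of 3 unnamed transcripts near Cwc22 on chromosome 2 (77869441 to 77877360) differed in another way. The most abundant had 1.98 FPKM in ASP+ACE and 9.49 in IBU+ACE, beside 8.86 in Control and 6.60 in ACE+ACE. The least abundant went from 0.186 to 1.05 FPKM, beside 1.23 in Control and 0.867 in ACE+ACE, and the one between them from 0.249 to 1.36 FPKM, beside 1.63 in Control. In all 3, among the libraries with a value, the one apart was ASP+ACE, not IBU+ACE. The transcript between them in abundance has no ACE+ACE value. On chromosome 1 (74757563 to 74771681) a run of 3 between Prkag3 and Wnt6, with Gm27507 the named one, was lower in IBU+ACE. Gm27507 went from 0.465 to 0.0969 FPKM and its 2 neighbours from 0.518 to 0.0540 FPKM and from 1.34 FPKM to a listed 0. Named after their values were seen were the snRNA Gm22513 and the pseudogene Rpsa-ps10. Gm22513, over only 164 nt, went from 351 to 751 FPKM, beside 843 in Control and 703 in ACE+ACE. Rpsa-ps10 went from 119 to 196 FPKM, beside 195 in Control and 193 in ACE+ACE. In both, too, ASP+ACE was the low library.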

How the data were processed

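RNA was sequenced from E13.5 mouse gonads as paired 75 nt reads of stranded libraries depleted of ribosomal RNA, per the labels' protocols, at a stated 40000000 reads per sample, with 1 library in each of 4 groups. Per the submitters' processing notes, the tools were TopHat2 2.1, Bowtie2 2.2.6, Cufflinks 2.2.1, SAMtools 1.3, FastQC and bcl2fastq 2.17, and the build was GRCm38; settings, and whether strand was used, are not given in those sources. The authors deposited values read here as FPKM from the Cufflinks layout of the tables, since no header states a unit. Deposited log2 fold changes equalled those recomputed within 1.09e-05, and the deposited p-values and q-values were each the same in all 174 rows. Decimal commas were read as points, 1 was added to each locus start, and values that recur between tables disagreed 0 times. A value for Control or ACE+ACE was taken from whichever other table lists the transcript, which was possible for 111 and 128 of the 174; the pairwise tables share libraries.

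Python 3.11.15, pandas 2.3.3, numpy 2.4.6 and matplotlib 3.10.9 were used, with GENCODE M21 for overlapping genes and RefSeq (GRCm38.p6) for promoters. No test was run, since 1 library per group gives no error. The depth each library reached is unknown, so no precision can be set. Reading and counting were tested on simulated data. Of the named transcripts, 43 lie in loci that span more than 1 annotated gene, whose values may be mixed. Named in the text were up to 20 transcripts per direction with the largest fold where either library reached 1 FPKM, up to 3 at 0 in 1 library for each direction, every listed member of 29 gene lists, and up to 3 unnamed transcripts per direction; a name outside this rule carries a remark, or belongs to a run of neighbours. Members and lists were chosen with earlier results of these data known. Alternatives were a minimum level, named transcripts alone, 1 row per gene, no small RNAs, single-gene loci, added FPKM, centring and a stricter q; leaving out the limb, cartilage, epidermal and signalling lists was added after seeing the data.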

Additional observations from a re-analysis of the deposited data

How the results depend on the processing

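Under the filters and added FPKM more transcripts were higher than lower in IBU+ACE. The 160 higher transcripts became between 115 and 157 under the filters, and the 14 lower became 7 with a minimum of 1 FPKM, 7 with named transcripts alone and 7 with 1 row per gene name. At 2-fold or more, the 5 lower became 1, 2 and 2 under these 3 filters. Adding FPKM also gives transcripts listed at 0 a fold. After adding 1 FPKM 55 were higher, 53 of them among the 125, and 2 were lower, 1 of them among the 5; after adding 0.1 FPKM 9 were lower, 5 of them among the 5. Centring on the listed median of 1.75, which was set by called transcripts alone and by construction splits them evenly, left 23 higher and 16 lower and turned 68 positive log2 values negative, those of all listed liver, muscle and retinoid genes among them. A q of 0.01 or less left 0 higher and 0 lower, since every row has the same q. Without the limb, cartilage, epidermal and signalling lists 120 higher and 14 lower transcripts remained. No paired analysis was possible because each group is 1 library, and no replicate could be left out for the same reason. With read depth unknown, folds of transcripts under 1 FPKM in both libraries, 52 of 174, have no stated precision.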
